A study of Mus musculus with 4 samples.

Results

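The genes described here are the machinery that copies DNA in S phase and the enzymes that make its building blocks: 45 mouse genes chosen by name for their function, with earlier results of these data known. Ensembl gene IDs of the deposited count tables were mapped to mouse symbols, and all 45 matched 1 ID each among the 38124 IDs listed. All 45 had at least 20 counts in at least 2 libraries and so stood among the 10694 genes tested, with 21 counts (Gins1, HFD GFP-low) to 1776 counts (Mcm6, HFD GFP-high) in a library.

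The cells came from the intestinal epithelium of 71-week-old male C57BL/6 mice and were sorted by their GFP signal. There were 4 groups of 1 library each: HFD GFP-high and HFD GFP-low from mice on a high-fat diet, and control GFP-high and control GFP-low from mice on the normal diet, which the sample titles call WT. GFP-high cells are labelled intestinal stem cells and GFP-low cells progenitors, and every library was poly(A)+ RNA of cells pooled from 2 to 5 mice. The labels do not name the gene that drives GFP, describe the diets further or say whether the GFP-high and GFP-low cells of a diet were sorted from the same animals. No group has a replicate, so a test of fraction or diet rests on the spread among 4 pooled libraries, which may be technical.

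Replication starts in G1, when the origin recognition complex (ORC), Cdc6 and Cdt1 load the MCM helicase onto DNA. Cdc45 and the GINS complex then bind MCM to form the active helicase (CMG), polymerase alpha-primase lays down primers, and polymerases delta and epsilon extend them, held on the template by the PCNA clamp that replication factor C (RFC) loads. Most genes of this machinery are targets of E2F transcription factors, and the crypt base and the transit-amplifying zone above it are the dividing compartments of the intestinal epithelium.

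The libraries held 6207080 counts (HFD GFP-high), 5327015 counts (HFD GFP-low), 5201394 counts (control GFP-high) and 4677389 counts (control GFP-low), so 3 counts, the most that a count of 0 allows, are 0.483 to 0.641 CPM (counts scaled to a library of 1e+06). Levels below are CPM scaled by the trimmed mean of M values (TMM). The sort labels were checked against marker genes: all 10 crypt base stem cell markers tested rose in GFP-high, with a median log2 ratio of 2.48, while all 10 enterocyte, all 8 goblet, all 6 Paneth and all 8 enteroendocrine markers fell. Markers of other tissue had low sums. The 10 leukocyte genes summed to 13.5 to 37.7 CPM in a library, with Ptprc at 0 in all libraries. The 8 stromal and endothelial genes summed to 2.72 to 26.9 CPM, with Col1a1, Col1a2, Col3a1 and Cdh5 at 0 in all. In each of these lists 1 gene was tested, Itgam and Vim, and both fell in GFP-high. Itgam had a log2 ratio of -1.23 (edgeR adjusted p 0.000486) and Vim -3.58 (edgeR adjusted p 1.33e-05). Itgam reached 29.6 CPM and Vim 25.5 CPM, both in control GFP-low, where they made up most of their list's sum. Of 6 tuft cell markers, 2 were tested. Trpm5 fell (log2 ratio -0.95), while Pou2f3 had a ratio of 0.63 that did not pass (edgeR adjusted p 0.121).

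Replication genes took a larger share of the RNA of GFP-high cells than of GFP-low cells under both diets. Of the 45 genes, 36 rose in GFP-high and 0 fell, where 21.5% of all tested genes were called higher and 24.8% lower (edgeR quasi-likelihood F-test over both diets, Benjamini-Hochberg adjustment over all tested genes, threshold 0.05). On the log2 scale the median ratio was 0.66 for the 45 genes and 0.01 for all tested genes, GFP-high over GFP-low, and 44 of the 45 ratios were above 0, against 50.5% of all tested genes. Both GFP-high libraries were above both GFP-low libraries for 40 of the 45 genes, against 34.1% of all tested genes. The exceptions were Gmnn, Gins4, Rrm2, Rpa3 and Orc4. Summed, the 45 genes came to 3445.2 CPM (HFD) and 2930.8 CPM (control) in GFP-high, against 1923.7 CPM (HFD) and 1869.8 CPM (control) in GFP-low. They took 0.37% (HFD) and 0.31% (control) of all counts in GFP-high, against 0.179% (HFD) and 0.177% (control) in GFP-low. In bulk RNA, fewer cells of a type and less RNA per cell cannot be told apart.

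**Figure D1:**
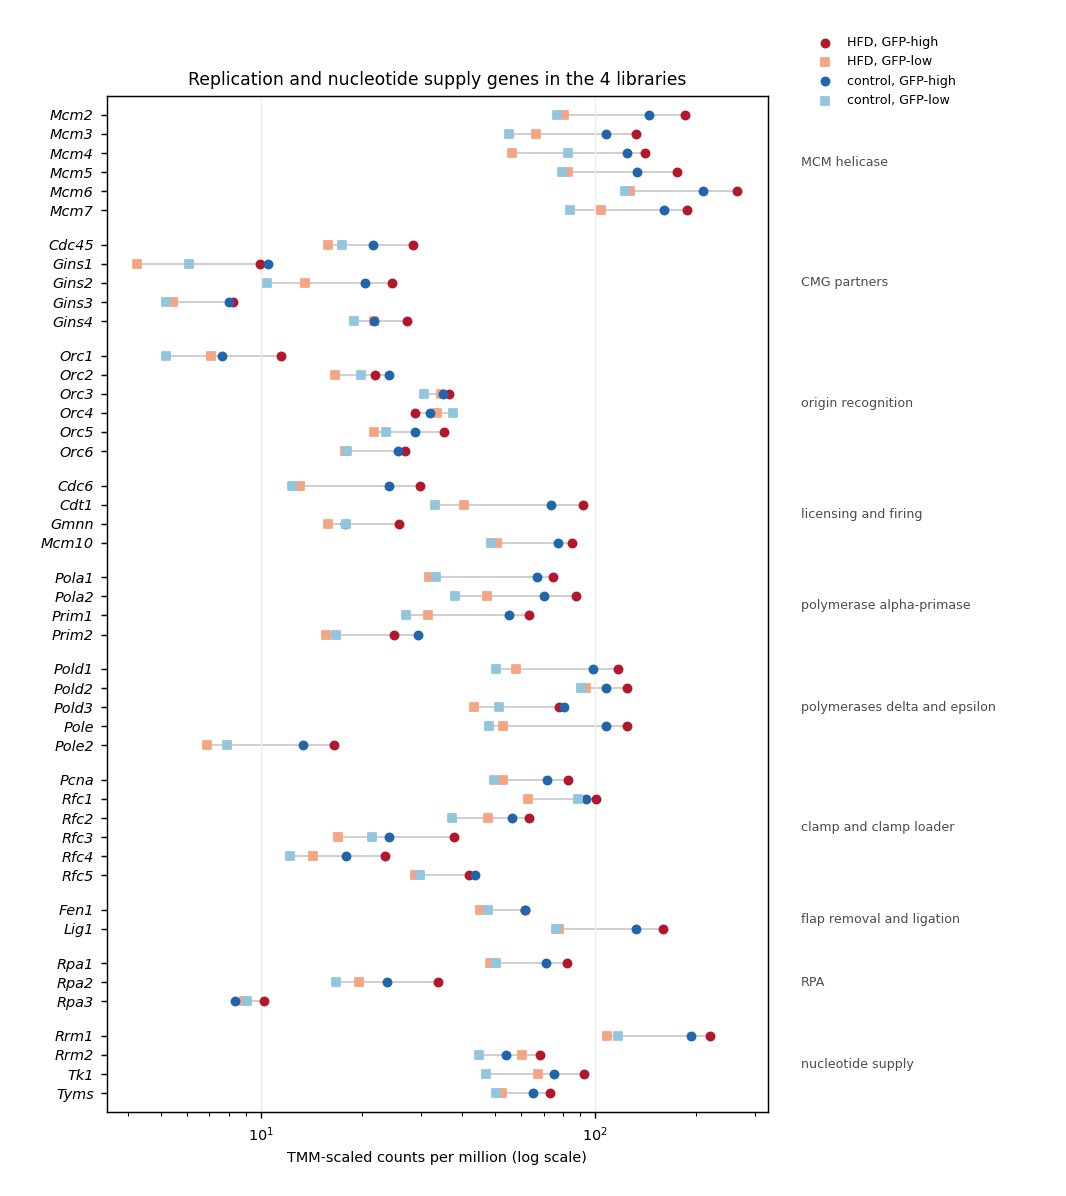
TMM-scaled CPM of each of the 45 genes (rows, by role) in the 4 libraries, on a log axis; circles are GFP-high, squares GFP-low, with a line from the lowest to the highest library. The circles lie right of both squares for 40 of the 45 genes, and Orc4 is the gene with both circles left of both squares.

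The size of this difference depended on scaling and its calls on the model. Scaling by library totals instead of TMM shifted the median of all tested genes by 0.186 on the log2 scale and that of the 45 genes to 0.85, and called 3628 of all genes higher and 1931 lower, where TMM called 2297 higher and 2656 lower. DESeq2 called 18 of the 45 higher and 0 lower, and edgeR with fraction as the only term called 4 without the HFD GFP-high library, 14 without the control GFP-high library, 20 without the HFD GFP-low library and 19 without the control GFP-low library. The calls kept under every alternative run were those of Pole, Pola1, Cdt1 and Mcm2. DESeq2 kept all 6 MCM calls, and lost every call among ORC, the helicase's partners and the clamp and its loader, as well as those of Pole2, Pold2, Prim2, Fen1, Rpa2, Tyms and Tk1. Markers of differentiated cells moved the other way: the 8 goblet markers summed to 3188.1 CPM (HFD) and 3599.4 CPM (control) in GFP-high, against 17816.6 CPM (HFD) and 40561.2 CPM (control) in GFP-low. The 10 enterocyte markers summed to 673.9 CPM (HFD) and 476.9 CPM (control) in GFP-high, against 6248.5 CPM (HFD) and 2788.9 CPM (control) in GFP-low. Genes of mitosis, a sign of cycling cells, rose as well: 11 of 16 passed the test, 0 fell, and their median log2 ratio was 0.45. The part of these cell types and of the share of cycling cells in the replication result was not tested.

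All 6 subunits of the MCM helicase rose in GFP-high, within a narrow range of log2 ratios from 0.89 (Mcm7) to 1.06 (Mcm2). Mcm2 was at 185.1 CPM (HFD) and 145 CPM (control) in GFP-high, against 80.6 CPM (HFD) and 76.8 CPM (control) in GFP-low. Its log2 ratio was 1.06 ± 0.11 (SE), a 2.09-fold difference with an edgeR adjusted p of 1.98e-05. Mcm6, the subunit with the highest level per length of the union of exons, was at 266.4 CPM (HFD) and 209.9 CPM (control) in GFP-high, against 127.1 CPM (HFD) and 122.3 CPM (control) in GFP-low. Mcm3, Mcm4 and Mcm5 had log2 ratios of 0.98, 0.96 and 0.93. Even the lower GFP-high library stood above the higher GFP-low library for each of these subunits. Mcm7 carries Mir25 and Mir93 within its exons on the same strand and overlaps exons of Cops6 and Ap4m1 on the opposite strand, and the strand setting of the counting is not given, so its counts may include reads of these neighbours.

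Promoter letters were set beside these results, and whether they bear on the ratios was not tested. RefSeq windows on GRCm38.p6, from 250 bases before the annotated start to 50 bases after it, were found for 37 of the 45 genes. Each window was searched on both strands for the E2F-type words TTTCCCGC, TTTGGCGC, TTTCGCGC and TTTGCCGC and for the CCAAT box, and overlapping words were counted separately. An E2F-type word stood in 15 of the 37 genes (40.5%), against 704 of 27025 genes with a window (2.6%). All genes here means every gene with a window, whether expressed or not, and not the tested genes used as background elsewhere. At least 2 such words stood in Mcm3, Mcm5, Mcm6, Mcm7 and Rfc3, which is 5 of 37 genes (13.5%) against 0.107% of all genes. Mcm2, the MCM gene with the highest fraction ratio, has 0 such words, Mcm4 has no window, and Mcm7 has a further window with 0. CCAAT stood in 23 of 37 genes (62.2%), against 41.1% of all genes. Those 5 windows are printed because they hold the most such words, and Rrm2, which did not pass the fraction test and has none, is printed beside them. Each reads 5′ to 3′ on the gene's own strand, in GRCm38.p6 coordinates, and capitals mark the E2F-type words and CCAAT on either strand.
Mcm3 promoter, chr1:20820263-20820562, minus strand: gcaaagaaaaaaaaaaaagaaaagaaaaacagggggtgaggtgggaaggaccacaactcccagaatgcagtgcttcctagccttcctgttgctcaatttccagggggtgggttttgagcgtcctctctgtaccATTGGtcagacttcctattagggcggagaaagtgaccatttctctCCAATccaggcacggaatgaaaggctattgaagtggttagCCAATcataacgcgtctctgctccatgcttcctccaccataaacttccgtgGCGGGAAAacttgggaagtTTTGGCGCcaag
Mcm5 promoter, chr8:75109259-75109558, plus strand: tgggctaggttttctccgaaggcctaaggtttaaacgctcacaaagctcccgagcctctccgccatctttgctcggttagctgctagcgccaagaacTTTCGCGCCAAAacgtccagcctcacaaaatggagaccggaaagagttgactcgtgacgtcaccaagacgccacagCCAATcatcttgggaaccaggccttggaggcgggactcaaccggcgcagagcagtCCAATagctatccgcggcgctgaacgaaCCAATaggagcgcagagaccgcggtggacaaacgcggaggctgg
Mcm6 promoter, chr1:128359656-128359955, minus strand: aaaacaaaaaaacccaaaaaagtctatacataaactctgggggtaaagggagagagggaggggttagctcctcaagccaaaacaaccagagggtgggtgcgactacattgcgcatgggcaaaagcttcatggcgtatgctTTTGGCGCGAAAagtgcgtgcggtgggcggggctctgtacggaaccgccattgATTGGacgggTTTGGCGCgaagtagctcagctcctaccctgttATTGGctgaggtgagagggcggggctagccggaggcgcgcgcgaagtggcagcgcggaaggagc
Mcm7 promoter, chr5:138171834-138172133, minus strand: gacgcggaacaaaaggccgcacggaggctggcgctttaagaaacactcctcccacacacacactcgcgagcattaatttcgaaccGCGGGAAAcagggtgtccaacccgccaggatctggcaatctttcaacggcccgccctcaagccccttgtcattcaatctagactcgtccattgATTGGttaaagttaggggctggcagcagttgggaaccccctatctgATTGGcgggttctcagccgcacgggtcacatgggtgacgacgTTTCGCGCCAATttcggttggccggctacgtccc
Rfc3 promoter, chr5:151651159-151651458, minus strand: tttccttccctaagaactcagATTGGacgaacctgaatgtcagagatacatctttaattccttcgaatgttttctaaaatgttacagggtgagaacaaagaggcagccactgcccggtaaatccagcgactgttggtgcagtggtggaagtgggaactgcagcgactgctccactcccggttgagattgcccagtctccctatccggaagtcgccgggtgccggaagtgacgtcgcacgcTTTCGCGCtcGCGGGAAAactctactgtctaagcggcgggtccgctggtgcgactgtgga
Rrm2 promoter, chr12:24708004-24708303, plus strand: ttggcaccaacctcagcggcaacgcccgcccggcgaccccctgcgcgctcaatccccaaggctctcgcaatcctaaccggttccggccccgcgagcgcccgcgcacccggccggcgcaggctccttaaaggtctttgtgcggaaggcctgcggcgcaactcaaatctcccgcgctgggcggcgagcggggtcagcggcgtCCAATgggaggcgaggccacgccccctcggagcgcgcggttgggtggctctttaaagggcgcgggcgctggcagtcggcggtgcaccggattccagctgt
The Mcm6 window holds 3 E2F-type words, of which 2 overlap by sharing bases, at 110, 106 and 47 bases before the start. The 2 words of the Mcm5 window also overlap by sharing bases. In Rfc3 the words sit 10 bases before the start and at the start itself. Of the genes with a window, such a word stood in 12 of 30 (40%) that rose and in 3 of 7 (42.9%) that did not pass, which were Gins3, Orc1 and Orc3; the difference was not tested, and 8 genes had no window. A match is a run of letters, not a measured binding site.

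Among the helicase's partners, 3 of 5 rose in GFP-high by edgeR and 0 of 5 by DESeq2. Gins1 was at 9.9 CPM (HFD) and 10.5 CPM (control) in GFP-high, against 4.24 CPM (HFD) and 6.1 CPM (control) in GFP-low, which is 0.99 ± 0.30 on the log2 scale (SE, edgeR adjusted p 0.0176). Gins2 (0.91) and Cdc45 (0.60), the factor that joins GINS on MCM, also rose. Gins3 was at 8.25 CPM (HFD) and 7.99 CPM (control) in GFP-high, against 5.45 CPM (HFD) and 5.2 CPM (control) in GFP-low, and its ratio of 0.61 did not pass (edgeR adjusted p 0.117). Gins4 was the flattest GINS subunit, at 27.3 CPM (HFD) and 21.8 CPM (control) in GFP-high, against 21.8 CPM (HFD) and 19.0 CPM (control) in GFP-low. Its log2 ratio was 0.27 ± 0.16 (SE, edgeR adjusted p 0.199). The 4 subunits of 1 complex thus had fitted log2 ratios from 0.27 to 0.99, with an SE of 0.30 on both Gins1 and Gins3, and the differences between subunits were not tested.

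ORC, which marks the origins, was the group with the smallest share of calls: Orc5 (log2 ratio 0.50) and Orc6 (0.55) rose, and the other 4 of 6 did not pass. Both calls were lost with DESeq2, with fraction as the only term and without any 1 library. Orc4 was at 28.9 CPM (HFD) and 32.0 CPM (control) in GFP-high, against 33.7 CPM (HFD) and 37.5 CPM (control) in GFP-low. It was the member with a negative ratio, -0.23 ± 0.14 (SE, edgeR adjusted p 0.197), and under each diet its GFP-high library was the lower. Orc3 was at 36.4 CPM (HFD) and 35.0 CPM (control) in GFP-high, against 34.5 CPM (HFD) and 30.7 CPM (control) in GFP-low. Its log2 ratio was 0.13 ± 0.14 (SE, edgeR adjusted p 0.461). Orc6, the highest ORC gene per length, was at 27.0 CPM (HFD) and 25.6 CPM (control) in GFP-high, against 17.8 CPM (HFD) and 18.1 CPM (control) in GFP-low. Orc1, known in human cells as a subunit whose amount changes through the cell cycle, had a log2 ratio of 0.64 that did not pass (edgeR adjusted p 0.0874) at 23 to 77 counts in a library. Orc2 had 0.34 (edgeR adjusted p 0.12). Orc1, Orc2, Orc4 and Orc6 overlap exons of genes on the opposite strand.

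**Figure D2:**
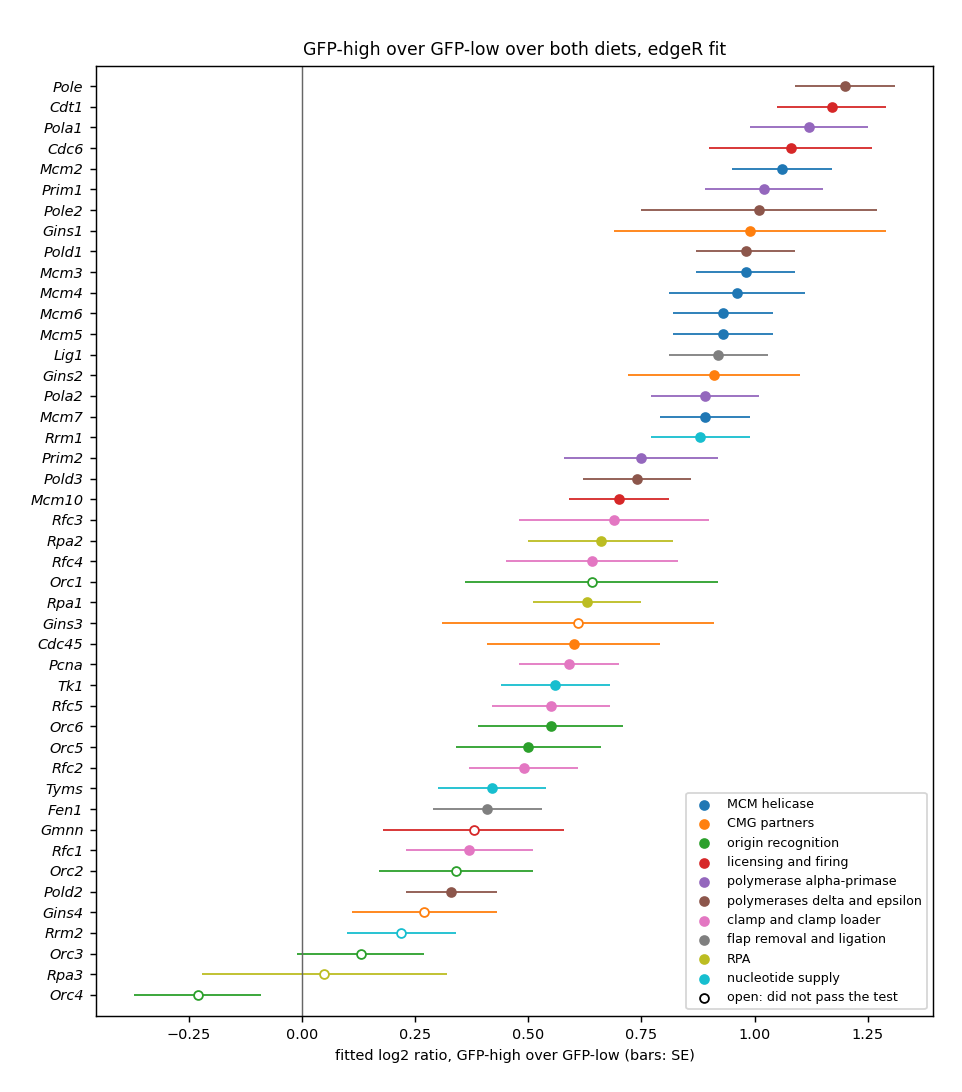
Fitted log2 ratio (GFP-high over GFP-low) for each of the 45 genes, ordered by the ratio and coloured by role, with bars of 1 SE; filled points passed the edgeR test and open points did not. The points run from -0.23 (Orc4) to 1.20 (Pole), and 36 of 45 are filled.

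The licensing factors that load MCM stood near the top of the order. Cdt1, which brings MCM to origins, was at 92.1 CPM (HFD) and 73.9 CPM (control) in GFP-high, against 40.6 CPM (HFD) and 33.2 CPM (control) in GFP-low. Its log2 ratio was 1.17 ± 0.12 (SE, edgeR adjusted p 1.85e-05). Cdc6, the ATPase that works with Cdt1, was at 29.8 CPM (HFD) and 24.1 CPM (control) in GFP-high, against 13.1 CPM (HFD) and 12.4 CPM (control) in GFP-low, which is 1.08 ± 0.18 on the log2 scale (SE, edgeR adjusted p 0.000549). Mcm10, which takes part in activating the helicase, had a ratio of 0.70 and also rose. Geminin (Gmnn), the protein that binds and inhibits Cdt1, was at 25.9 CPM (HFD) and 17.8 CPM (control) in GFP-high, against 15.8 CPM (HFD) and 17.9 CPM (control) in GFP-low, and its log2 ratio of 0.38 ± 0.20 (SE) did not pass (edgeR adjusted p 0.149). The GFP-high library of Gmnn was thus above its GFP-low library under HFD and level with it under the control diet. The difference between Cdt1 and Gmnn in their ratios was not tested.

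All 4 subunits of polymerase alpha-primase rose. Pola1, the catalytic subunit of polymerase alpha, was at 74.8 CPM (HFD) and 67.0 CPM (control) in GFP-high, against 31.9 CPM (HFD) and 33.4 CPM (control) in GFP-low, which is 1.12 ± 0.13 on the log2 scale (SE, edgeR adjusted p 4.17e-05). Prim1, the catalytic subunit of primase, was at 63.4 CPM (HFD) and 55.2 CPM (control) in GFP-high, against 31.5 CPM (HFD) and 27.1 CPM (control) in GFP-low, which is 1.02 ± 0.13 on the log2 scale (SE, edgeR adjusted p 8.69e-05). Pola2, the accessory subunit of polymerase alpha, had 0.89. Prim2, the large primase subunit, was at 24.9 CPM (HFD) and 29.4 CPM (control) in GFP-high, against 15.6 CPM (HFD) and 16.7 CPM (control) in GFP-low, a ratio of 0.75.

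The replicative polymerases held the gene with the highest ratio and 1 of the lowest among those called. Pole, the catalytic subunit of leading-strand polymerase epsilon (ENSMUSG00000007080, chromosome 5, 110286306 to 110337474, plus strand, GRCm38), overlapping Gm15792 on the opposite strand, had 832 counts (HFD) and 591 counts (control) in GFP-high, against 262 counts (HFD) and 213 counts (control) in GFP-low. That is 124.8 CPM (HFD) and 107.3 CPM (control) in GFP-high, against 52.9 CPM (HFD) and 48.1 CPM (control) in GFP-low. The log2 ratio was 1.20 ± 0.11 (SE), a 2.29-fold difference with an edgeR adjusted p of 8.59e-06. Pole2, the second subunit of epsilon, was at 16.5 CPM (HFD) and 13.3 CPM (control) in GFP-high, against 6.87 CPM (HFD) and 7.91 CPM (control) in GFP-low, a ratio of 1.01. Within polymerase delta, the catalytic subunit Pold1 had 0.98, Pold3 0.74 and Pold2 0.33. Pold2 was at 124.3 CPM (HFD) and 108.0 CPM (control) in GFP-high, against 94.1 CPM (HFD) and 90.4 CPM (control) in GFP-low, and its log2 ratio of 0.33 ± 0.10 (SE) still passed (edgeR adjusted p 0.0225). Both GFP-high libraries of Pold2 were above both GFP-low libraries, by a smaller margin than those of Pold1.

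The clamp and its loader all rose, with log2 ratios from 0.37 to 0.69. Pcna was at 82.9 CPM (HFD) and 71.7 CPM (control) in GFP-high, against 53.1 CPM (HFD) and 49.7 CPM (control) in GFP-low, a ratio of 0.59 ± 0.11 (SE, edgeR adjusted p 0.00167). The annotation names the pseudogenes Pcna-ps1 and Pcna-ps2, and reads may be split between them and Pcna. Of the loader subunits, Rfc3 had 0.69, Rfc4 0.64, Rfc5 0.55, Rfc2 0.49 and the large subunit Rfc1 0.37. DESeq2 called 0 of these 6 genes. The call for Rfc1 was close to the threshold (edgeR adjusted p 0.0481), and it was also lost when DESeq2 size factors replaced TMM in edgeR. With 1 library on each side, Rfc3 had a log2 ratio of 1.14 under HFD and 0.17 under the control diet, and Rfc1 0.67 and 0.07. Under the control diet Rfc2, Rfc4 and Rfc5 had 0.59, 0.54 and 0.54.

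Of the enzymes that finish lagging-strand fragments, DNA ligase Lig1 had the larger ratio. It was at 159.9 CPM (HFD) and 132.2 CPM (control) in GFP-high, against 77.8 CPM (HFD) and 76.4 CPM (control) in GFP-low, a log2 ratio of 0.92 (edgeR adjusted p 5.36e-05). Fen1, the flap endonuclease that trims the fragments before ligation, was at 61.6 CPM (HFD) and 61.4 CPM (control) in GFP-high, against 45.2 CPM (HFD) and 47.7 CPM (control) in GFP-low, a ratio of 0.41 (edgeR adjusted p 0.0164). Of the single-strand binding protein RPA, the subunits Rpa1 (0.63) and Rpa2 (0.66) rose. Rpa1 was at 82.3 CPM (HFD) and 71.0 CPM (control) in GFP-high, against 48.5 CPM (HFD) and 50.6 CPM (control) in GFP-low. Rpa3, the smallest RPA subunit, was at 10.2 CPM (HFD) and 8.35 CPM (control) in GFP-high, against 8.89 CPM (HFD) and 9.04 CPM (control) in GFP-low. Its groups overlapped, and its log2 ratio of 0.05 ± 0.27 (SE) did not pass (edgeR adjusted p 0.893).

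Of the 4 nucleotide supply genes, 3 rose, and the subunit of ribonucleotide reductase that did not pass was Rrm2; the difference between Rrm1 and Rrm2, which together make deoxynucleotides, was not tested. Rrm1, the large subunit, was at 220.8 CPM (HFD) and 192.8 CPM (control) in GFP-high, against 108.1 CPM (HFD) and 117.3 CPM (control) in GFP-low, which is 0.88 ± 0.11 on the log2 scale (SE, edgeR adjusted p 7.17e-05). Rrm2, the small subunit made in S phase, was at 68.1 CPM (HFD) and 53.9 CPM (control) in GFP-high, against 60.2 CPM (HFD) and 45 CPM (control) in GFP-low, a ratio of 0.22 ± 0.12 (SE) that did not pass (edgeR adjusted p 0.154). The HFD GFP-low library of Rrm2 was above the control GFP-high library. Thymidine kinase Tk1, which salvages thymidine, had a ratio of 0.56 and thymidylate synthase Tyms, which makes dTMP, 0.42, and both rose. Tyms was at 73.2 CPM (HFD) and 65.2 CPM (control) in GFP-high, against 52.5 CPM (HFD) and 50.6 CPM (control) in GFP-low. Tk1 overlaps exons of Afmid on the opposite strand, and a Tyms pseudogene is annotated.

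The fraction difference was seen in each diet taken alone, with 1 library on each side and no test. Under HFD the summed counts of the 45 genes were 1.79-fold higher in GFP-high (95% interval 1.75 to 1.83, counting error only), and under the control diet 1.57-fold higher (1.53 to 1.61). The median log2 ratio was 0.76 under HFD and 0.59 under the control diet, with 0.00 for all tested genes in both, and 44 genes (HFD) and 42 genes (control) of 45 had ratios above 0. The counting interval lay above 0 for 38 of 45 genes under HFD and for 32 of 45 under the control diet. It lay below 0 for 0 genes under either diet. The share of all tested genes with such intervals was not computed, so these counts have no background beside them. Across the 45 genes the ratios in the 2 diets, which share no library, had a Spearman correlation of 0.70 and a Pearson correlation of 0.73. This describes genes within 4 libraries, which are not independent replicates. By role, the median ratio under HFD against that under the control diet was 1.08 against 0.84 for MCM, 1.0 against 0.71 for polymerases delta and epsilon, 0.94 against 0.94 for polymerase alpha-primase and 0.47 against 0.51 for nucleotide supply.

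**Figure D3:**
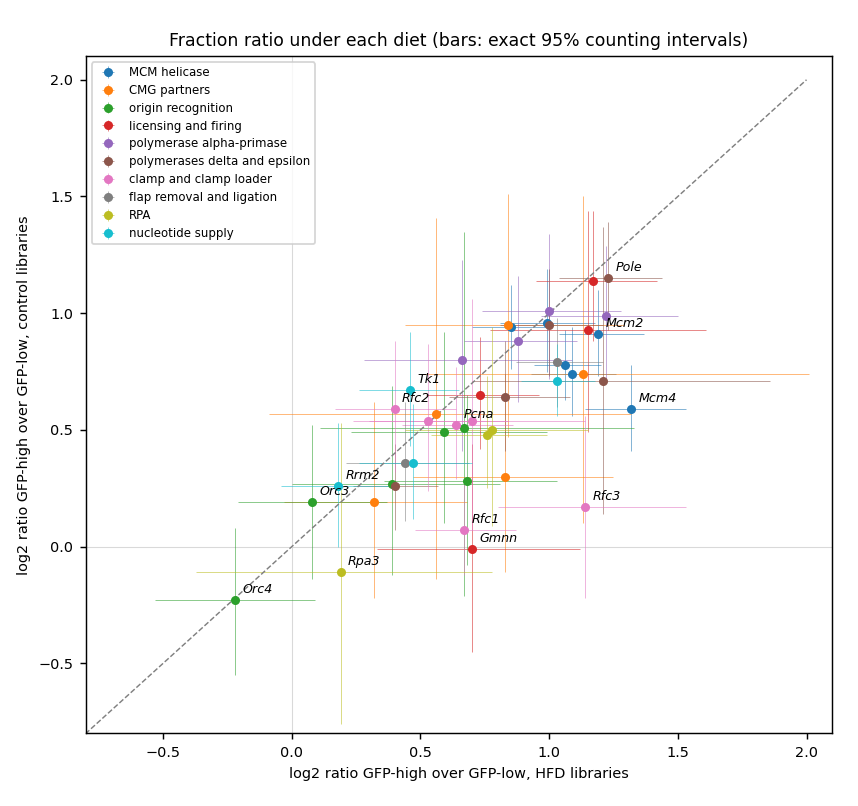
Log2 ratio (GFP-high over GFP-low) under HFD and under the control diet for each of the 45 genes, from 1 library on each side, with exact 95% counting intervals, coloured by role, and a dashed line of equal ratios. Most genes lie at ratios above 0 in both diets, and Rfc3 and Mcm4 lie farthest to the HFD side of the line.

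Per length, the genes spanned a wide range. Levels here are TPM (counts per kilobase of the union of annotated exons, scaled to a common sum), averaged over the 4 libraries. Pold2 was highest at 142.2 TPM and Mcm6 next at 102.2 TPM, and the median of the 45 genes was 25.7 TPM. The MCM subunits, which form a ring with 1 copy of each, lay between 46.2 TPM (Mcm2) and 102.2 TPM (Mcm6), and by the length of the longest transcript between 59.2 TPM (Mcm3) and 101.5 TPM (Mcm7). Within GINS, Gins4 was at 43.0 TPM and Gins3 at 6.47 TPM, and within ORC, Orc6 was at 23.3 TPM and Orc1 at 5.88 TPM, the lowest of the 45. Pcna was at 69.9 TPM, while the loader subunits lay between 18.2 TPM (Rfc3) and 37.3 TPM (Rfc1). The highest and lowest of the remaining groups were Cdt1 (50.4 TPM) and Cdc6 (10 TPM), Prim1 (30.2 TPM) and Prim2 (9.56 TPM), Lig1 (68.7 TPM) and Fen1 (57.8 TPM), Rpa1 (29.5 TPM) and Rpa2 (20.5 TPM), and Rrm2 (52.7 TPM) and Tyms (25.7 TPM). The lowest in polymerases delta and epsilon was Pole2 at 10.2 TPM. The order by the longest transcript had a Spearman correlation of 0.95 with this one, and it changed some of these places: Pola2 (47.3 TPM) stood above Prim1 (31.8 TPM), Rrm1 (65.4 TPM) and Tk1 (62.9 TPM) above Rrm2 (56.9 TPM), and Rpa1 (27.7 TPM) was the lowest RPA gene.

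**Figure D4:**
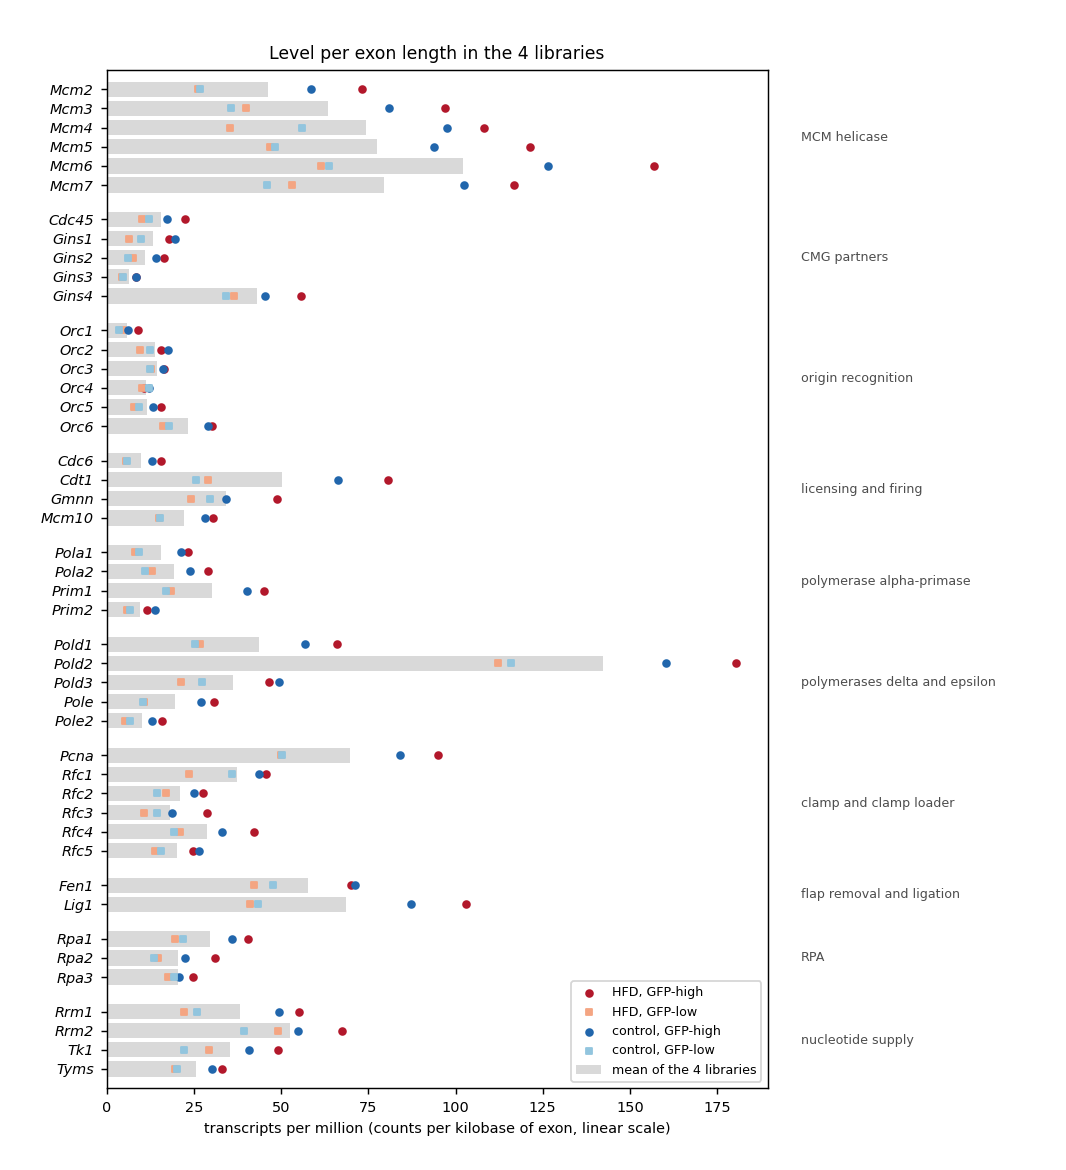
Level per length of each of the 45 genes in TPM on a linear axis, with 1 point for each of the 4 libraries and a grey bar from 0 to their mean. The genes run from Orc1 at a mean of 5.88 TPM to Pold2 at 142.2 TPM.

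Diet gave no call among the 45 genes. The edgeR test called 0 of them higher and 0 lower on HFD, where 2.26% of all tested genes were called higher and 3% lower, and DESeq2 also called 0. At an unadjusted p under 0.05 there were 8 of 45, against 19.9% of all tested genes. The median log2 ratio of HFD over control was 0.16 for the 45 genes and 0.01 for all tested genes, and 36 of 45 ratios were above 0, against 51.8% of all tested genes. Both HFD libraries were above both control libraries for 2 of 45 genes, Gins4 and Rrm2, where 11.5% of all tested genes had that order. The median ratio ranged from -0.32 to 0.49 when 1 library was left out and diet was the only term, which leaves the fractions unbalanced between the diets; it was -0.32 without the HFD GFP-high library, -0.13 without the control GFP-low library, 0.49 without the HFD GFP-low library and 0.49 without the control GFP-high library.

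The genes at the ends of the diet order had low counts or fell short of the threshold. Orc1 was highest, at 11.5 CPM (HFD) against 7.62 CPM (control) in GFP-high and 7.07 CPM (HFD) against 5.2 CPM (control) in GFP-low, which is 0.53 ± 0.28 on the log2 scale (SE, edgeR adjusted p 0.327). Rpa2 was at 33.9 CPM (HFD) against 23.8 CPM (control) in GFP-high and 19.6 CPM (HFD) against 16.7 CPM (control) in GFP-low, a ratio of 0.40 ± 0.16 (SE, edgeR adjusted p 0.201). Tk1 was at 92.7 CPM (HFD) against 75.3 CPM (control) in GFP-high and 67.5 CPM (HFD) against 47.2 CPM (control) in GFP-low, a ratio of 0.40 ± 0.12 (SE, edgeR adjusted p 0.0794). Tk1 was the member nearest to a call, and it was called higher when no filter on low counts was set. Rrm2 followed with 0.38 ± 0.12 (SE, edgeR adjusted p 0.0976). At the other end, Gins1 had -0.25 ± 0.29 (SE, edgeR adjusted p 0.692), Orc2 -0.19 and Prim2 -0.19 (edgeR adjusted p 0.576). Orc2 was at 21.9 CPM (HFD) against 24.1 CPM (control) in GFP-high and 16.6 CPM (HFD) against 19.9 CPM (control) in GFP-low. In each of these 3 genes the HFD library was below the control library in both fractions.

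Taken by fraction, with 1 library for each diet and no test, the genes were shifted to HFD in GFP-high cells and centred near 0 in GFP-low cells. In GFP-high the summed counts of the 45 genes were 1.18-fold higher on HFD (95% interval 1.15 to 1.20, counting error only), and 39 of 45 log2 ratios were above 0, against 52.8% of all tested genes. Their median was 0.22 and that of all tested genes 0.02. In GFP-low the summed fold was 1.03 (0.999 to 1.06), and 26 of 45 ratios were above 0, against 50.5% of all tested genes, with medians of 0.06 for the 45 and 0.00 for all. In GFP-high the counting interval was above 0 for 23 genes and below 0 for 0, and the ratios ran from -0.24 (Prim2) to 0.64 (Rfc3). In GFP-low it was above 0 for 6 genes (Mcm3, Mcm7, Pola2, Rfc2, Rrm2 and Tk1) and below 0 for 2 (Mcm4 and Rfc1). For neither fraction was the share of all tested genes with such intervals computed, so these counts have no background beside them. Past 1.5-fold stood 1 of 45 genes higher (Rfc3) and 0 lower in GFP-high, where 3.39% and 4.14% of genes at 5 CPM or more did. In GFP-low it was 0 higher and 0 lower, where 5.79% and 6.88% did. Mitosis genes lay near 0: their median diet log2 ratio was -0.04 in GFP-high, with 4 of 16 above 0, and -0.02 in GFP-low, with 7 of 16 above 0. The HFD GFP-high library was also the deepest of the 4. Cell type markers differed with diet as well: median diet log2 ratios were 0.62 (GFP-high) and 0.86 (GFP-low) for enterocyte, -0.22 (GFP-high) and -0.37 (GFP-low) for crypt base stem cell, -0.12 (GFP-high) and -1.19 (GFP-low) for goblet, -0.68 (GFP-high) and -1.06 (GFP-low) for Paneth, and 0.33 (GFP-high) and -1.15 (GFP-low) for enteroendocrine markers. The part of depth and of cell types in these ratios was not tested.

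**Figure D5:**
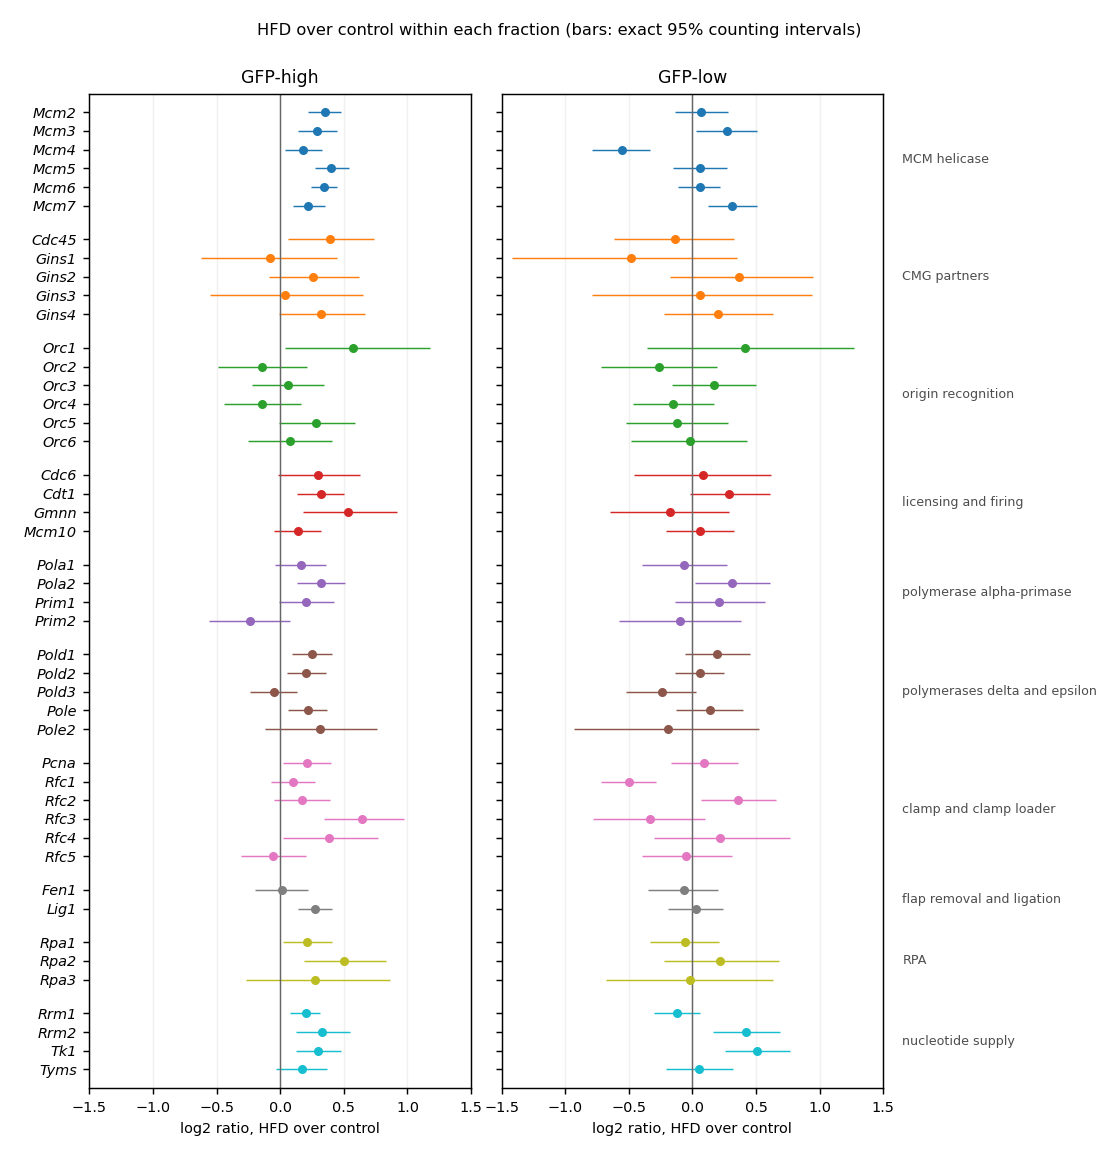
Log2 ratio of HFD over control in GFP-high and in GFP-low cells for each of the 45 genes, from 1 library on each side, with 95% counting intervals. In GFP-high 39 of 45 points are above 0 and in GFP-low 26, and Mcm4 and Rfc1 are the genes whose GFP-low interval lies below 0.

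Set against each other, the fraction ratio was more often larger under HFD. The diet-by-fraction difference, the fraction log2 ratio under HFD minus that under the control diet, was above 0 for 35 of 45 genes, against 50.6% of all tested genes, with a median of 0.12 for the 45 and 0.00 for all. Markers of secretory cells had larger values of the same difference, with medians of 1.0 for goblet (8 of 8 above 0), 1.4 for enteroendocrine (7 of 8) and 0.46 for Paneth markers (5 of 6), while those of crypt base stem cells had 0.19 (7 of 10), of enterocytes -0.32 (4 of 10) and of mitosis -0.01 (8 of 16). Their part in the replication values was not tested. With 1 library in each cell of the design this difference has no test. Its counting interval was above 0 for 8 genes (Mcm2, Mcm4, Mcm5, Mcm6, Rfc1, Rfc3, Gmnn and Rrm1) and below 0 for 0. The same share over all tested genes was not computed. Rfc3, a loader subunit (chromosome 5, 151642756 to 151651242, minus strand, GRCm38), had the highest value, 0.97 (0.45 to 1.49). It was at 37.9 CPM (HFD) against 24.1 CPM (control) in GFP-high and 17.0 CPM (HFD) against 21.5 CPM (control) in GFP-low. HFD GFP-high was its highest library, with the other 3 between 17.0 and 24.1 CPM.

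Mcm4 had a difference of 0.74 (0.47 to 1.0) and was the only MCM subunit below its control level in GFP-low. It was at 141.3 CPM (HFD) against 124.5 CPM (control) in GFP-high and 56.2 CPM (HFD) against 82.7 CPM (control) in GFP-low. Its diet log2 ratio was 0.18 (0.04 to 0.33) in GFP-high and -0.55 (-0.79 to -0.33) in GFP-low, while those of Mcm2, Mcm5 and Mcm6 in GFP-low were 0.07, 0.06 and 0.06. Gmnn had a difference of 0.71 (0.13 to 1.28), with the values given above. Rfc1 was at 100.2 CPM (HFD) against 93.7 CPM (control) in GFP-high and 62.8 CPM (HFD) against 89.0 CPM (control) in GFP-low, a difference of 0.60 (0.33 to 0.87). For Rfc1 the library that stood apart was HFD GFP-low, on the low side. In Rfc1 as in Mcm4, both GFP-low libraries were below both GFP-high libraries. At the other end, among genes with at least 50 counts in every library, were Tk1 at -0.21 (-0.52 to 0.09), Rfc2 at -0.19 (-0.54 to 0.17) and Prim2 at -0.13 (-0.69 to 0.42), all with intervals that hold 0. Rfc2 was at 63.3 CPM (HFD) against 56.3 CPM (control) in GFP-high and 47.9 CPM (HFD) against 37.3 CPM (control) in GFP-low.

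Other genes of the same processes, from lists chosen by function with earlier results of these data known, mostly moved the same way by fraction. Of 29 other fork and origin genes, 21 rose in GFP-high and 0 fell, with a median log2 ratio of 0.67. The fork protection gene Timeless (1.39) and the helicase gene Mcm8 (1.32) were highest, while Pold4 (-0.06) and Top1 (-0.13) did not pass. Of 10 chromatin assembly genes, 8 rose and 0 fell, with a median of 0.81. The remodeller Hells and the histone chaperone subunit Chaf1b (1.06 each) were highest, and the chaperones Asf1a (0.28) and Asf1b (0.32) lowest.

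Nucleotide synthesis outside the 45 genes was more mixed: of 31 genes tested, 18 rose in GFP-high and 2 fell, with a median of 0.50. The purine synthesis genes Ppat (1.42) and Paics (1.4) were highest. The genes that fell were Cmpk1 (-1.23), a kinase of pyrimidine monophosphates, and Samhd1 (-0.83), which breaks down deoxynucleotides. Impdh1, a step of guanine nucleotide synthesis, was the only gene of these lists called for diet, at a log2 ratio of HFD over control of 0.74 (edgeR adjusted p 0.0183). Of 20 regulators of the G1/S step, 13 rose in GFP-high and 2 fell, with a median of 0.51. E2f1 (1.37) and E2f6 (0.84) were highest. Rb1 (-1.28), which restrains E2F factors, and E2f2 (-1.21) fell. Rb1 was at 41.7 CPM (HFD) and 30.7 CPM (control) in GFP-high, against 90.1 CPM (HFD) and 84.8 CPM (control) in GFP-low. E2f1 was at 37.9 CPM (HFD) and 30.9 CPM (control) in GFP-high, against 17.0 CPM (HFD) and 9.72 CPM (control) in GFP-low. Under both diets E2f1 was thus higher and Rb1 lower in GFP-high cells.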

How the data were processed

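Poly(A)+ RNA of 4 pooled sorted libraries was sequenced from strand-marking dUTP libraries, per the labels' protocols. The deposited files hold counts of reads per Ensembl gene ID, not normalized, which the authors made with tools that the submitters' processing notes name as cutadapt, TopHat 1.4.1 and HTSeq, on GRCm38 (mm10). Which annotation release was counted, and with what strand option, is not given in the sources used here. Exons of 14 of the 45 genes overlap a gene on the opposite strand and those of 4 a gene on the same strand, so their counts may hold reads of neighbours. Of 38124 IDs, 36345 matched a symbol and 1779 did not. No row without a gene ID was present.

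The 10694 genes that reached 20 counts in 2 or more libraries were scaled by TMM and fitted with edgeR 4.0.16 in R 4.3.3, with diet and fraction as terms over all 4 libraries, which leaves 1 residual degree of freedom. The quasi-likelihood F-test was two-sided, with Benjamini-Hochberg adjustment over all tested genes and a threshold of 0.05. The fit gave a common dispersion of 0.00694 (biological coefficient of variation 0.0833). A difference between the diets in the fraction ratio counts as spread in this fit. The spread behind a p-value is that of these 4 libraries alone, and a diet p is too small where GFP-high and GFP-low cells share mice. DESeq2 1.42.0 was an alternative. The fits were also run on simulated data, drawn as independent libraries with a dispersion close to the fitted one. Those data held no difference between the diets in the fraction ratio and no shared mice, so they cannot check the calls against either.

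Ratios within a fraction or diet compare 1 library with 1, on TMM-scaled CPM with 0.5 CPM added, which understates changes of low genes, and a gene counted as past 1.5-fold only if its higher library held 5 CPM. Single ratios carry exact 95% Poisson intervals, without the added value; those of the diet-by-fraction difference are normal approximations from the counts. Without molecular identifiers, intervals cover counting error only. TPM were computed from the counts per kilobase of the union of exons in GENCODE M21, and promoters are RefSeq windows.

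The genes and lists were chosen with earlier results of these data known. All 45 genes are named. Values by library are given for the 6 highest and 6 lowest fraction ratios, the 3 highest and 3 lowest for diet and for diet-by-fraction (at 50 counts or more in every library), the highest and lowest level per length in each role, and Pcna, Rrm2, Mcm2 and Gmnn, and the 2 highest and 2 lowest fraction ratios are named from each further list. Rfc1 and Impdh1, and the values of Rb1 and E2f1, were added after their values were seen.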

Additional observations from a re-analysis of the deposited data

Results flagged for a closer look

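Mcm4, a subunit of the MCM helicase, had opposite diet directions in the 2 fractions. Its log2 ratio of HFD over control was 0.18 (95% counting interval 0.04 to 0.33) in GFP-high and -0.55 (-0.79 to -0.33) in GFP-low, a diet-by-fraction difference of 0.74. With 1 library in each fraction and diet, this difference was not tested. Rfc3, Gmnn and Rfc1, among others, also had a diet ratio above 0 in GFP-high and below 0 in GFP-low.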

How the results depend on the processing

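The fraction result kept its direction and lost calls under stricter fits. DESeq2 called 18 of the 45 genes higher, with 899 of all genes higher and 1491 lower. The fit with fraction as the only term called 23, with 1199 of all genes higher and 1595 lower. Leaving out each library in turn gave 4 to 20 of the 45 genes, 295 to 907 of all genes higher and 515 to 1390 lower, and a median ratio of the 45 genes between 0.59 and 0.80. Scaling by library totals, with 3628 of all genes higher, put the median of the 45 genes at 0.85 over both diets, 0.97 under HFD and 0.75 under the control diet. TMM factors taken from all genes, added after the data were seen, changed no member's call. The fraction ratio of Rpa3 ran from -0.09 to 0.20 without 1 library.

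For diet, dropping the filter gave 1 of the 45 genes (Tk1) and 515 of all genes higher and 618 lower. DESeq2 gave 73 higher and 116 lower among all genes, the fit with diet as the only term 0 and 0, and each fit without 1 library 0 and 0. The median of the 45 genes then ran from -0.32 to 0.49, and the ratios from -0.18 to 0.52 (Gmnn), -0.47 to 0.80 (Mcm2), -0.20 to 0.46 (Pcna), -0.06 to 0.72 (Rpa2), -0.98 to 0.23 (Gins1) and -0.58 to 0.29 (Prim2), since 3 libraries leave the fractions unbalanced between the diets. In GFP-high, 2 genes stood past 1.5-fold with library totals, 2 with 0.1 CPM added and 0 past 2-fold. Diet is a term of the fraction fit, which so compares the fractions within each diet; pairing by replicate number was not possible because each group has 1 library. Other causes were not tested. Depth limits Gins1, Gins3, Orc1 and Rpa3 most, with counts of 21 to 77 in a library.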
